A study of Mus musculus with 5 samples.

Results

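The genes described here are 6 mouse fibrillar collagen chains, Col1a1, Col1a2, Col3a1, Col5a1, Col5a2 and Col5a3. They were found on the array as the probes whose RefSeq accession, without its version, belongs to one of these genes. That gave 8 probes of 56595 kept on the array, for 6 genes of 22907 that could be named. Col1a1 and Col5a3 had 2 probes each and the others 1 probe each. The study measured RNA of B16F1 cells, a mouse melanoma line, on 5 one-colour arrays, 1 array per culture. It asked how TGF-β1 signalling and the MRTF pathway depend on thymosin β4, the actin-binding peptide that Tmsb4x encodes. MRTFs are actin-regulated coactivators of the transcription factor SRF, and CCG1423 is a chemical that blocks them.

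The Tmsb4x knockout group comprised 2 clones given TGF-β1 at 10 ng/ml for 2 days. Wild-type B16F1 cells were given TGF-β1 at 10 ng/ml together with CCG1423 at 10 µM for 2 days, TGF-β1 alone at that dose and time, or vehicle, with 1 array for each. Each knockout line is 1 clone, so a property of a clone and an effect of the knockout cannot be told apart within it. No vehicle-treated knockout array is analysed here. The 3 main comparisons, of TGF-β1 with vehicle, of CCG1423 added to TGF-β1, and of the clones with wild type, all involve the single wild-type TGF-β1 array and so share it. Whether the clones were cultured on separate occasions is not stated, so the spread between these 2 samples may be technical. The p-values below rest on that spread after limma pooled it with the spread over all genes. The treatment field of the CCG1423 array names that agent alone, whereas its title and description name both agents; it was taken as both.

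Fibrillar collagens are secreted as procollagen, in which 3 chains wind into a triple helix, and are then trimmed and packed into fibrils. Type I collagen is normally built from both the Col1a1 and the Col1a2 chain, type III from Col3a1 alone, and type V, which is buried in type I fibrils and limits their width, mostly from Col5a1 and Col5a2. Fibroblasts are the main source of type I collagen, and TGF-β is known there as an inducer of its genes. Melanoma cells can also make collagens.

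Stretches upstream of Col1a2, Col5a1 and Col5a3 are shown because these genes differed in their response and were read on most arrays. Those of Col1a1 and Col5a2 were not analysed here. Each runs 5′ to 3′ on the gene's strand, from 250 to 51 bases before the listed start of the gene, taken from RefSeq (build GRCm38.p6). Capitals mark every match on either strand to CAGAC (the core bound by SMAD factors), CCAAT (a box bound by the NF-Y complex) and GGGCGG (a box bound by Sp1). The Col1a2 stretch is chr6:4505368-4505567 on the plus strand, the Col5a1 stretch is chr2:27886175-27886374 on the plus strand, and the Col5a3 stretch is chr9:20815118-20815317 on the minus strand.
Col1a2: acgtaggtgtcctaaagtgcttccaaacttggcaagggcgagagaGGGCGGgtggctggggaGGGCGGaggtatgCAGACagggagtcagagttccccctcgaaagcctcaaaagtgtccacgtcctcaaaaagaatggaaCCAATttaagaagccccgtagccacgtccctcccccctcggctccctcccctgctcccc
Col5a1: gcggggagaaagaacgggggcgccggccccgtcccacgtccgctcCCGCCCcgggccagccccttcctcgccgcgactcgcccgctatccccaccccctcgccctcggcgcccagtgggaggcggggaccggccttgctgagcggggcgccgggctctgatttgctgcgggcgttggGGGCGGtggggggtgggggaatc
Col5a3: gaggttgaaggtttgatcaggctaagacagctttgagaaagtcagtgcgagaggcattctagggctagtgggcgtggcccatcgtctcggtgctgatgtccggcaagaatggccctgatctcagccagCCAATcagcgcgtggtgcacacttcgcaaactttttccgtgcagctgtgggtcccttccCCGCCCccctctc

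The Col1a2 stretch held 1 CAGAC, 1 CCAAT and 2 GGGCGG matches. The Col5a1 stretch held 2 GGGCGG matches, 1 on each strand, and neither of the other motifs. The Col5a3 stretch held 1 CCAAT and 1 GGGCGG match. The matches did not overlap each other. Of 32851 promoters from the same source, read over the same 200 bases, 35.8% held at least 1 CAGAC, 28.4% CCAAT and 24.6% GGGCGG. A single match to any of these motifs is thus common. The share of promoters with 2 GGGCGG matches or with all 3 motifs was not computed. A CArG box, the motif bound by SRF, was found in 0 of these 3 stretches and in 1.16% of all promoters. A match is a string of letters and was not tested as a binding site.

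Levels below are log2 processed signal minus the 75th percentile of the same array, so that a probe at the 75th percentile has the level 0. "Well above background" is the scanner software's own call for a spot, and a probe was counted so where the majority of its spots were. The 75th percentile of the signal lay between 230 and 329 on the 5 arrays, and 48.2% to 53.8% of probes were well above background. The lowest signal so called was 26.0 in clone 2 and 13.3 to 15.5 on the other arrays. A level is compared only between arrays for the same probe. All 7 melanocyte markers (Tyr, Tyrp1, Dct, Pmel, Mlana, Sox10 and Mitf) were well above background on every array, with a summed linear level of 2658 and 2691 in the clones, 1750 with CCG1423, 2324 with TGF-β1 and 2234 with vehicle. Of 9 fibroblast markers, 0 to 2 were well above background on an array, and Pdgfra, Pdgfrb, Thy1, Dcn, Dpt and Fap were so on none. Lum and Mfap5 were so with vehicle alone, at -1.78 and -1.99, against -6.46 and -6.53 with TGF-β1. Pi16 was so in clone 1 alone, at -3.86. The summed level of the 9 was 0.210 and 0.225 in the clones, 0.240 with CCG1423, 0.196 with TGF-β1 and 0.679 with vehicle. Tmsb4x, the targeted gene, stood at 5.44 in clone 1 and 4.28 in clone 2, against 6.79 in wild-type cells with TGF-β1 and CCG1423, 7.12 with TGF-β1 and 5.05 with vehicle. Its level in clone 1 thus lay above that with vehicle, and below that with TGF-β1, the array the clones are compared with (adjusted p = 0.0857 in limma, and 1.40e-10 to 0.309 over 8 other fits, of which 3 passed). Where in the gene it was edited is not given in the sources used here, and the series' design text speaks of a knockdown where the sample labels say knockout.

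Col1a1, a chain of type I collagen, was printed as 2 probes of 10 spots each, which gives its values a direct measure of spot-to-spot error. The brighter probe stood at 2.33 ± 0.07 in clone 1, 0.93 ± 0.09 in clone 2, -0.17 ± 0.08 with TGF-β1 and CCG1423, 1.15 ± 0.07 with TGF-β1 and -3.74 ± 0.28 with vehicle (SD over 10 spots on each array). The other probe stood at 2.30 ± 0.06, 0.95 ± 0.10, -0.19 ± 0.10, 1.17 ± 0.06 and -4.17 ± 0.34 in the same order of arrays (SD over 9 spots, and over 10 with vehicle). Both probes thus put clone 1 highest, the wild type with TGF-β1 close above clone 2, CCG1423 next and vehicle far below. Spots of the brighter probe had levels from 0.80 to 1.06 in clone 2 and from 1.04 to 1.25 in wild-type cells with TGF-β1, so these 2 arrays overlapped spot by spot, and no other pair of arrays did for this probe. With vehicle 9 of 10 spots of the brighter probe and 6 of 10 of the other were well above background, at a mean signal of 22.5 and 16.6. These SDs describe printing and scanning on 1 array and not the variation between cultures.

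**Figure D1:**
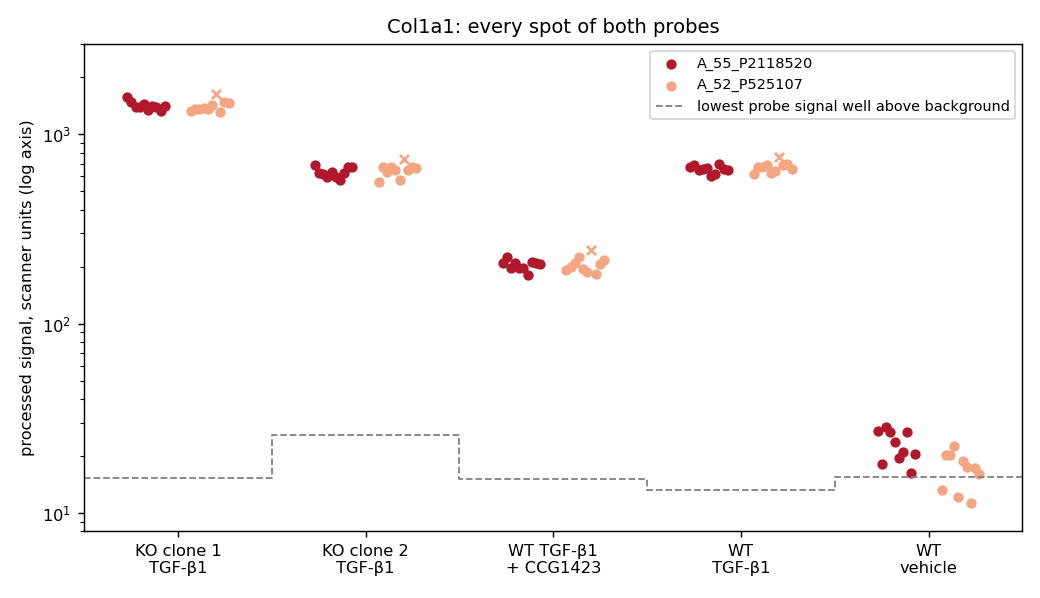
Processed signal in scanner units on a log axis for each spot of both Col1a1 probes on the 5 arrays; crosses are spots flagged as outliers and left out, and the dashed line is the lowest probe signal called well above background on each array. Spots of the brighter probe lay between 1327 and 1576 in clone 1, overlapped between clone 2 and wild-type cells with TGF-β1, and lay between 16.2 and 28.6 with vehicle.

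Col1a2, the partner chain of type I collagen, was read by 1 spot on each array and was dimmer. Its level was -0.72 in clone 1, -0.95 in clone 2, -3.49 with TGF-β1 and CCG1423, -2.44 with TGF-β1 and -1.93 with vehicle. The spot was well above background on all 5 arrays, but with CCG1423 its signal of 20.4 stood close to the lowest signal so called there, 15.2. Both clones thus lay above every wild-type array, and among wild-type arrays vehicle was the highest, whereas for Col1a1 it was the lowest. Single spots have no spot error of their own; among probes printed at least 8 times, the median spot SD was 0.28 on the log2 scale for signals of 15 to 30 (9 probe readings), 0.14 for 30 to 300 (28) and 0.08 for 300 to 3000 (36).

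Col5a1, the main chain of type V collagen, was bright throughout, at 2.47 in clone 1, 2.10 in clone 2, 2.40 with CCG1423, 3.02 with TGF-β1 and 2.42 with vehicle. Col5a2, its partner chain, stood at -1.22 in clone 1, -1.63 in clone 2, -1.43 with CCG1423, -0.42 with TGF-β1 and -1.14 with vehicle. Both were highest in wild-type cells with TGF-β1 and lowest in clone 2, with the other 3 arrays between. After each gene's own mean was removed, the 2 profiles differed by a root mean square of 0.14 over the 5 arrays, the smallest distance among the 15 pairs of these 6 genes. The distance between Col1a1 and Col1a2 was 2.00.

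Col5a3, a further type V chain with a narrower tissue range, ran the other way from Col5a1 and Col5a2 in wild-type cells. Its brighter probe stood at -0.96 in clone 1, -3.44 in clone 2, 1.04 with CCG1423, -0.60 with TGF-β1 and 0.18 with vehicle, and was not well above background in clone 2. Its other probe failed that call on all 5 arrays, at -4.31, -5.88, -4.00, -5.78 and -4.89 in the same order of arrays, and gives no fold. Col3a1, the chain of type III collagen, was likewise below that call on all 5 arrays, with levels between -6.57 and -5.59, so no difference was detectable for it.

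**Figure D2:**
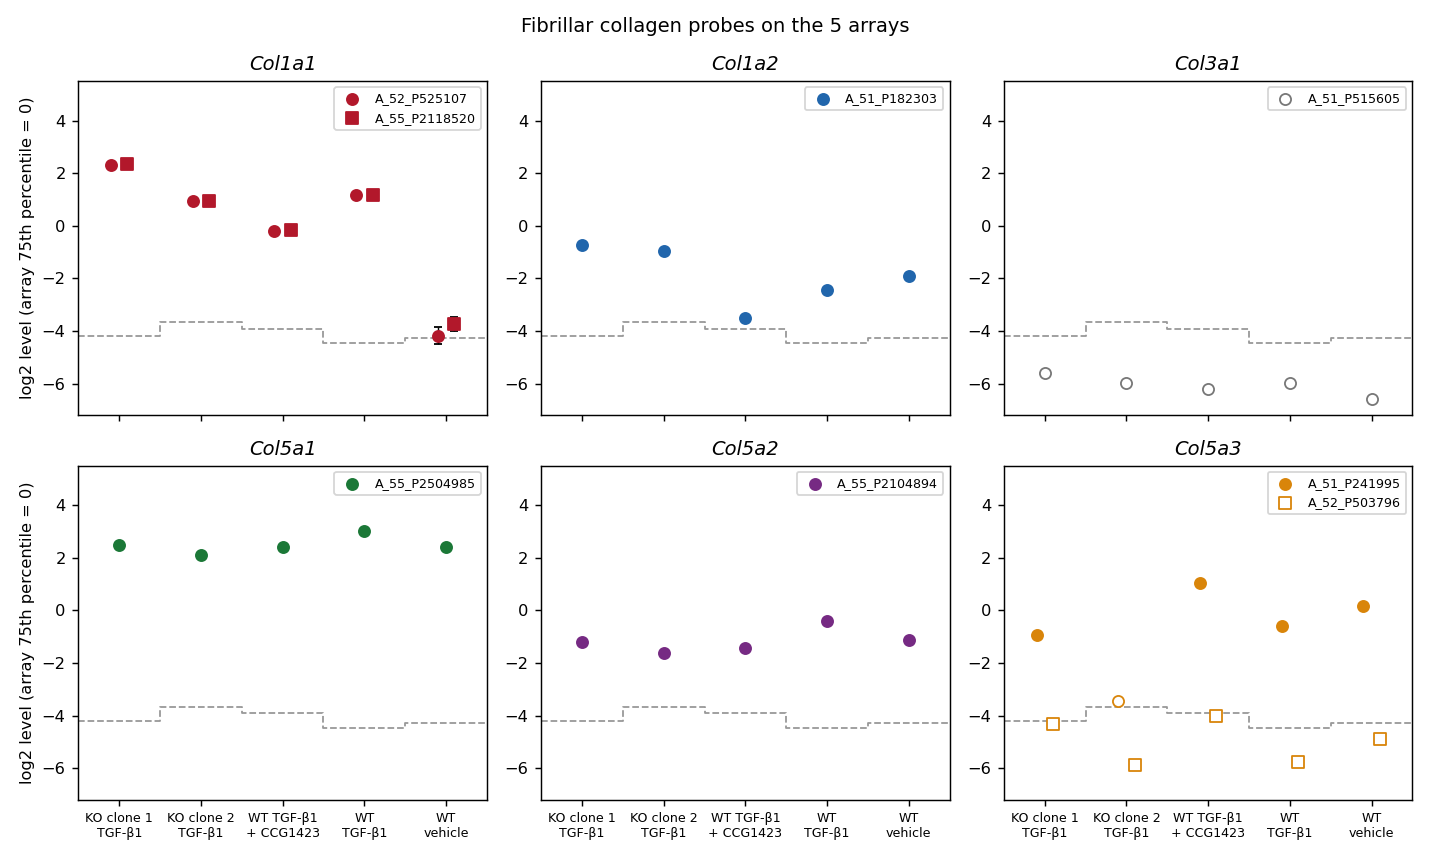
Log2 level of each of the 8 probes on the 5 arrays, one panel per gene, with 0 at the 75th percentile of each array. Filled symbols are well above background and open ones are not, error bars are the SD over repeated spots, and the dashed line is the lowest level called well above background. The brighter Col1a1 probe spans from -3.74 to 2.33 and the other from -4.17 to 2.30, whereas Col5a1 stays between 2.10 and 3.02.

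The comparison of TGF-β1 with vehicle in wild-type cells asks which collagen chains the cytokine raises. Col1a1 was 29.7-fold higher by its brighter probe and 40.6-fold higher by the other, and stood 7th from the top among 12893 genes measured on both arrays. Col1a2 did not follow, with a log2 difference of -0.51, so the 2 chains of type I collagen moved apart by 5.40 on the log2 scale. Col5a1 and Col5a2 were higher by 0.60 and 0.72, and Col5a3 lower, with a difference of -0.78. By count 1 of the 5 measured genes was at 2-fold or more, against 8.21% of 14145 genes (4.95% higher and 3.27% lower).

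With 1 array each these differences have no replicate check. As a yardstick from the same slide, the 2 clones, which shared a treatment, differed by 1.40 for Col1a1, 0.23 for Col1a2, 0.36 for Col5a1, 0.41 for Col5a2 and 2.49 for Col5a3. The TGF-β1 difference exceeded that between the clones for Col1a1, Col1a2, Col5a1 and Col5a2, and not for Col5a3. A background correction that lifts dim signals gave 3.03 in place of 4.89 for Col1a1 and -0.19 in place of -0.51 for Col1a2; the cause of the shift was not tested.

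Of the other fibrillar chains, Col2a1, Col11a1, Col11a2 and Col27a1 were well above background with TGF-β1 and not with vehicle. They were thus measured only through the TGF-β1 array, which fixes their direction, and their number and median show nothing about the list. Col24a1 was not well above background on any of the 5 arrays, at -4.58 with TGF-β1 and -4.35 with vehicle. Col2a1, the chain of cartilage type II collagen, was at least 8.63-fold higher and Col27a1 at least 2.41-fold. The list of fibril-associated and beaded-filament collagens also holds Col7a1, a chain of neither type. In it 4 of 8 measured genes were at least 2-fold higher and 0 lower, against 4.95% and 3.27% of all genes. The median was 1.15 against -0.05 over all genes, and 0.79 with dim signals raised to the detection floor. Col9a3, a chain of the type IX collagen that coats cartilage fibrils, was at least 3.45-fold higher and Col7a1, the anchoring-fibril collagen of skin, 5.09-fold. Col9a3, Col6a1 and Col22a1 were not well above background with vehicle, so Col9a3, among the 4, could count only as higher. Col6a3 was not well above background with TGF-β1. The median rests in part on these dim genes.

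The counts of the lists that follow stand against the same shares of all genes, 4.95% at 2-fold higher and 3.27% lower. Of 22 measured genes for chain modification and folding, 0 were at 2-fold or more in either direction (median 0.15). In the list of procollagen processing and cross-linking 2 of 7 were higher: Bmp1, the protease that trims the procollagen carboxyl end, 2.67-fold, and Loxl3, a lysyl oxidase-like enzyme, 2.16-fold. Fibril assembly partners had 3 of 11 higher and 3 lower, among them Thbs1, thrombospondin, 5.48-fold higher and Postn, periostin, 3.91-fold higher, and on the lower side Lum, the fibril proteoglycan lumican, at least 6.46-fold and Tnxb, tenascin X, at least 2.41-fold. Lum, a fibroblast marker as well, and Tnxb were well above background on the vehicle array alone. Both could therefore count only as lower. Postn stood at 1.06 in clone 1 and -2.72 in clone 2, a wider gap than its log2 difference of 1.97 with TGF-β1. Of collagen receptors and breakdown genes 2 of 8 were higher, Ddr1, a collagen receptor kinase, 2.70-fold and Mmp2, a gelatinase, 2.03-fold, and Itga1, a collagen-binding integrin chain, was 2.25-fold lower. Among listed regulators of type I collagen genes 2 of 23 were higher and 0 lower: Scx, the tendon transcription factor scleraxis, 25.4-fold, and Smad7, the inhibitory SMAD, 6.0-fold. With the background correction that lifts dim signals, Col27a1, Col9a3, Mmp2, Itga1 and Tnxb did not reach 2-fold, at 0.47, 0.69, 0.54, -0.40 and -0.33 on the log2 scale.

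**Figure D3:**
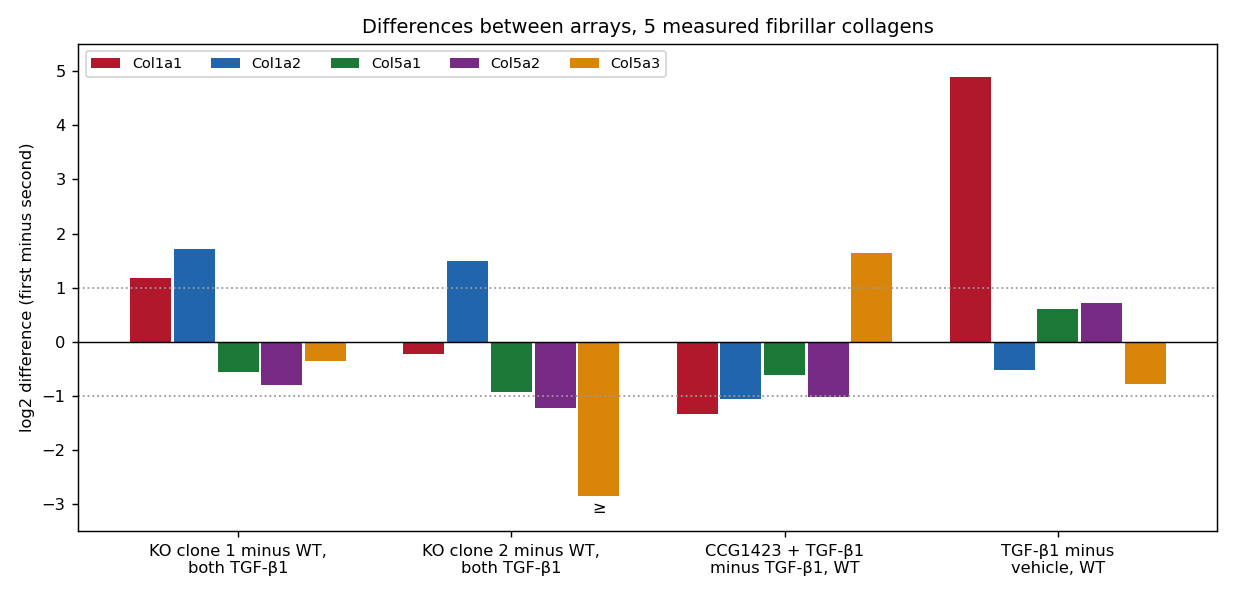
Log2 difference of Col1a1, Col1a2, Col5a1, Col5a2 and Col5a3 in the 4 comparisons named under the axis, each written as first array minus second, with dotted lines at 2-fold and a mark where one side was not well above background and the fold is a lower bound. Col1a1 stands at 4.89 with TGF-β1 against vehicle while Col1a2 stands at -0.51, and Col1a2 is the one of these 5 genes beyond 2-fold on the higher side in both clones.

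Adding CCG1423 to TGF-β1 asks what the inhibitor does to the TGF-β1 state. Here both type I chains were lower, Col1a1 by 2.51-fold (2.57-fold by its other probe) and Col1a2 by 2.08-fold, so the difference between them was -0.27 on the log2 scale (-0.97 with the background correction that lifts dim signals). Col5a2 was 2.02-fold lower and Col5a1 1.54-fold. Col5a3 was 3.12-fold higher, and stood 145th from the top among 12626 genes measured on both arrays. In all 4 of 5 measured genes were at 2-fold or more, 3 lower and 1 higher, against 13.0% of 14057 genes; 6.98% of all genes were lower by that much and 6.01% higher.

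Even so Col1a1 remained far above vehicle with CCG1423, by 3.56 on the log2 scale, whereas Col1a2 was below it, with a difference of -1.57. Col5a1 and Col5a2 lay at -0.02 and -0.29 against vehicle, and Col5a3 at 0.86. The difference between CCG1423 with TGF-β1 and TGF-β1 alone exceeded that between the clones for Col1a2, Col5a1 and Col5a2, and not for Col1a1 and Col5a3. The Col1a2 and Col5a2 folds were near the 2-fold mark, and the background correction that lifts dim signals gave -0.13 for Col1a2 and -0.65 for Col5a2, in place of -1.06 and -1.01.

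In the related lists the counts stand against 6.01% of all genes at 2-fold higher and 6.98% lower. Col2a1 was 4.35-fold lower with CCG1423, the 1 gene of 4 measured among the other fibrillar collagens at 2-fold. The list's median was -1.38 (-0.77 with dim signals raised to the detection floor) against -0.05 over all genes. Col11a1 and Col27a1 were measured here only through the TGF-β1 array, which fixes their direction and so in part this median. Of 8 measured in the fibril-associated and beaded-filament list 4 were at least 2-fold lower and 0 higher (median -0.50), Col7a1 among the 4. They were led by Col9a3 at 2.70-fold, a lower bound, and Col9a1 at 2.62-fold. Col9a3 was not well above background with CCG1423, and so could count only as lower. Col9a1 stood at 1.38 in clone 1 and -2.14 in clone 2, a wider gap than its log2 difference of -1.39 with CCG1423. Among 21 chain modification and folding genes Sec23a, a coat protein for export from the endoplasmic reticulum, was 2.13-fold higher and Plod2, the lysyl hydroxylase of collagen telopeptides, 2.08-fold lower. Processing and cross-linking genes had 2 of 8 higher, Adamts3, a procollagen amino-end protease, at least 6.01-fold and Tgm2, tissue transglutaminase, 7.97-fold. Adamts3 did not pass the background call in cells given only TGF-β1, so it could count here only as higher. Between the clones Tgm2 differed by more than its 2.99 on the log2 scale here. It stood at -0.75 in clone 2 and at -6.24 in clone 1, where it was not well above background. Fn1, fibronectin, was 2.05-fold higher, the 1 gene of 9 fibril assembly partners at 2-fold. Mmp2 was 2.18-fold lower, the 1 gene of 8 receptors and breakdown genes at 2-fold. Regulators of type I collagen had 2 of 24 higher and 2 lower. Cebpb, a stress and inflammation factor, was 2.14-fold higher and Tgfb1 at least 2.45-fold. Like Adamts3, Tgfb1 failed the background call in cells given only TGF-β1, and so could count only as higher. Nfyc, a subunit of the CCAAT-binding NF-Y complex, was 2.51-fold lower. With the background correction that lifts dim signals, Col2a1, Col9a1, Col9a3, Mmp2 and Tgfb1 stayed under 2-fold, at -0.80, -0.50, -0.35, -0.45 and 0.80 on the log2 scale. Sec23a, Plod2, Fn1 and Cebpb lay near the 2-fold mark and each fell short of it in 2 or more other settings.

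The comparison of Tmsb4x knockout clones with wild-type cells, both given TGF-β1, gave a different split of the family. Col1a2 stood 3.29-fold above wild type in clone 1 and 2.80-fold in clone 2, a mean of 1.60 on the log2 scale with SE 0.43 (limma, adjusted p = 0.281 over 13729 genes). It did not pass the threshold of 0.05, and over 8 other fits the adjusted p ran from 0.153 to 0.433. Col1a1 was 2.26-fold above wild type in clone 1 and 1.17-fold below it in clone 2, a mean of 0.48 with SE 0.51 (limma, adjusted p = 1.00). Its other probe gave 1.13 and -0.22 in clones 1 and 2. The difference of Col1a1 minus that of Col1a2 was -0.54 in clone 1 and -1.71 in clone 2, and its mean of -1.13 became -0.45 with the background correction that lifts dim signals.

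The type V chains stood below wild type in both clones by the probe that stood for each gene. Col5a1 differed by -0.55 in clone 1 and -0.92 in clone 2 (mean -0.74, SE 0.30, adjusted p = 0.752), and Col5a2 by -0.80 and -1.21 (mean -1.01, SE 0.39, adjusted p = 0.713). Col5a3 differed by -0.35 in clone 1, whereas in clone 2 it was at least 7.17-fold lower and not well above background (mean -1.60, SE 0.79, adjusted p = 0.937 in limma). In limma 0 of the 5 measured genes passed, against 0.233% of 13729 genes, and 3 of the 5, Col1a2, Col5a1 and Col5a2, had an unadjusted p under 0.05, against 5.78% of all genes. By fold, 1 gene of 5, Col1a2, was at least 2-fold from wild type in both clones in the same direction, against 2.28% of genes (0.699% higher and 1.58% lower). Col5a3 alone passed under 2 of 8 other fits, with adjusted p from 0.0277 to 1.00 over the 8. The 2 passes came with the deposited value table and with no filter on dim probes.

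The clones also differed from each other. Col1a1 was 2.64-fold higher in clone 1 than in clone 2, and 102nd from the top among 12368 genes measured in both, and Col5a3 was at least 5.60-fold higher in clone 1. Col1a2, Col5a1 and Col5a2 differed by 1.17-fold to 1.33-fold. At 2-fold 7.57% of 13849 genes differed between the clones. Against vehicle, the log2 difference of Col1a1 was 6.07 for clone 1 and 4.66 for clone 2, and that of Col1a2 was 1.21 and 0.98, a comparison in which both genotype and treatment differ.

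Among the other fibrillar collagens 3 of 4 measured were at least 2-fold higher in both clones and 0 lower, against 0.699% and 1.58% of all genes, which are also the shares for the lists that follow (median 1.26 against -0.01 over all genes), and 0 passed limma. Col11a1, a chain of cartilage type XI collagen, was 3.82-fold and 2.14-fold higher in clones 1 and 2 (adjusted p = 0.677), and Col2a1 2.65-fold and 2.27-fold (adjusted p = 0.495). The third was Col11a2, at 2.55-fold and 2.12-fold. Col9a3 was 7.29-fold and 6.04-fold higher (adjusted p = 0.0588 in limma, with 0.00369 to 0.206 over 8 other fits, of which 5 passed). It was the 1 gene of 7 in the fibril-associated and beaded-filament list at 2-fold in both clones. Fkbp10, an endoplasmic reticulum chaperone of collagen, was the 1 gene of 21 in chain modification and folding to pass: it fell by 3.66 on the log2 scale (SE 0.54, adjusted p = 0.0482 in limma) and was not well above background in either clone. The limma estimate used the clone signals below that call. With these raised to the detection floor, Fkbp10 was at least 8.31-fold lower in clone 1 and at least 5.73-fold in clone 2. Over 8 other fits the adjusted p of Fkbp10 ran from 3.56e-07 to 0.165, and 4 of them passed. Runx2, the osteoblast transcription factor, was the 1 gene of 23 regulators of type I collagen at 2-fold in both clones (adjusted p = 0.900 in limma). It was 2.07-fold lower in clone 1 and at least 2.27-fold lower in clone 2, where it was not well above background. With the background correction that lifts dim signals, the mean log2 difference was 0.90 for Col1a2, 0.67 for Col11a1 and -0.56 for Runx2. In procollagen processing (7 measured), fibril assembly (9) and receptors and breakdown (8), 0 genes were at 2-fold in both clones and 0 passed, with medians of -0.16, -0.36 and -0.31 (-0.05, -0.36 and -0.15 with dim signals raised to the detection floor).

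**Figure D4:**
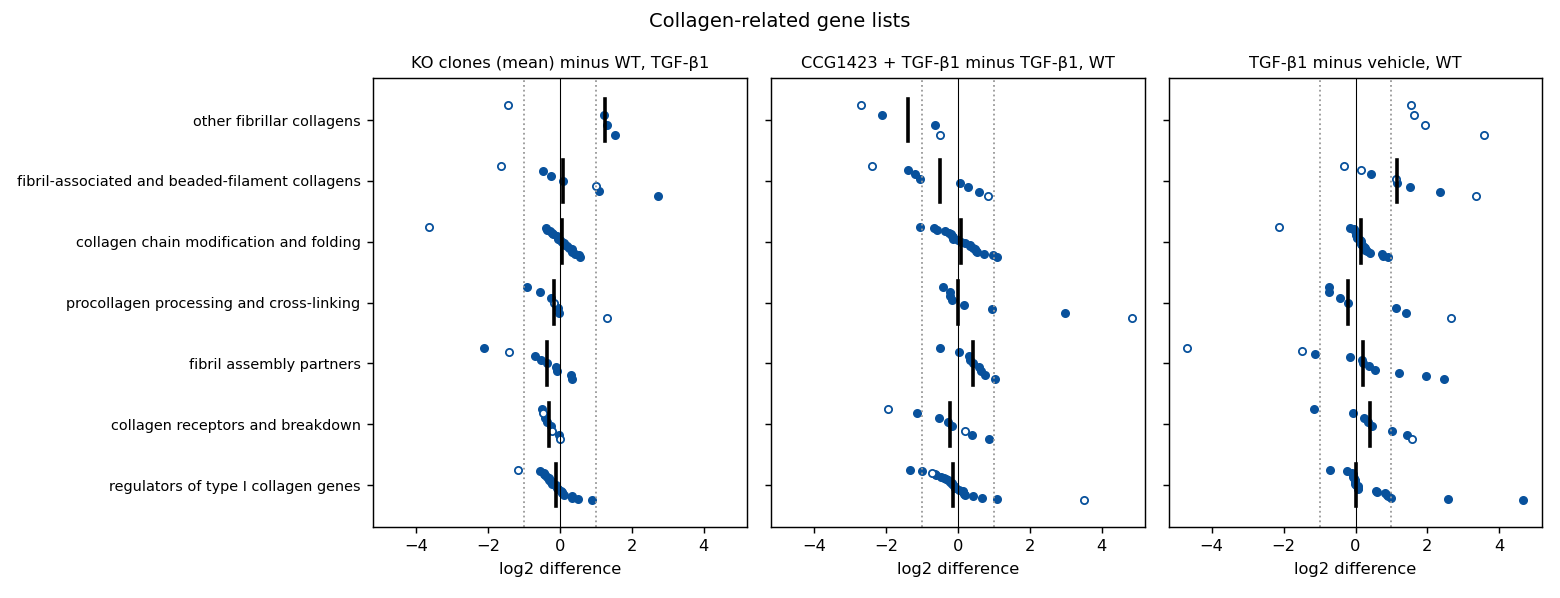
Log2 differences of the measured genes of each collagen-related list in the knockout clones (mean) against wild type with TGF-β1, with CCG1423 added to TGF-β1, and with TGF-β1 against vehicle. Each point is a gene at its measured log2 difference, open where an array compared was not well above background, the bar is the list's median (left out where no gene of the list was well above background on both sides) and dotted lines mark 2-fold. Regulators of type I collagen genes have medians of -0.13, -0.13 and 0.03 in these 3 comparisons.

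The genes whose levels followed Col1a1 and Col1a2 most closely were found by the root mean square difference of their 5 levels after each gene's own mean was removed, among 12054 genes well above background on all 5 arrays. Nearest to Col1a1 were Scx at 0.42, Rab15, a small GTPase, at 0.44 and Vill, a villin-like protein, at 0.67, against a median distance of 2.10. Scx stood at 3.54 and 2.21 in clones 1 and 2, 1.91 with CCG1423, 2.00 with TGF-β1 and -2.67 with vehicle. It thus shared the low vehicle level and the high clone 1 level of Col1a1, and differed by -0.09 with CCG1423 where Col1a1 differed by -1.33. Nearest to Col1a2 were Ptgds, a prostaglandin D synthase, at 0.24, Bnip3, a mitochondrial protein induced by hypoxia, at 0.27 and Rgs11, a regulator of G-protein signalling, at 0.28, against a median of 1.02. By the same measure Col1a2 was 2765th from Col1a1 among those genes, and Col1a1 was 12018th from Col1a2. With 5 arrays these distances are a description of the profiles.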

How the data were processed

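The arrays carried 59305 spots that were not controls and 3671 control spots. The intensity used, the processed signal, was background-subtracted and detrended within each array by the authors' scanner software, Agilent Feature Extraction 12.0.3.1 per the submitters' processing notes; it was not normalized between arrays per the file headers. Other flags (outlier, saturation, well above background) are scores of 0 or 1 set by that software, and the median signal and background intensity served one alternative. All 5 arrays share a slide and a scan per the file headers, so no batch could be tested. The deposited value table holds the same intensity times 1 constant per array, found by setting it against the scanner signal; the rule for the constants is unknown, and its column medians were 23.2 and 28.8 in the clones, 27.5 with CCG1423, 29.2 with TGF-β1 and 26.9 with vehicle.

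Outlier spots (107 to 141 per array) were left out, 0 spots were saturated, log2 signals of a probe's remaining spots were averaged, then lowered by the array's 75th percentile. Accessions were matched to RefSeq genes of GRCm38.p6, which named 32988 probes and left 23607 unnamed; the headers give an older build, so no gene coordinates are printed beside the RefSeq promoters. For a gene with several probes the one with the highest mean stood for it. A gene was measured in a comparison when 1 or more of the groups compared had it well above background on all their arrays. Where a side was not, a fold used the higher of its signal and the array's lowest signal well above background, and is written "at least". limma 3.58.1 under R 4.3.3 tested the knockout (mean-variance trend, Benjamini-Hochberg over 13729 genes, threshold 0.05) on all 5 arrays in 4 groups. With 1 residual degree of freedom, each gene's own spread is that between the 2 clones, and single wild-type arrays are assumed to vary alike. limma pools that spread with the trend over all genes, so an SE does not follow 1 gene's clones alone. Col5a3 had an SD between the clones of 1.76 and an SE of 0.79, and Col1a2 had 0.16 and 0.43. Other comparisons have 1 array a side and no test. The number of arrays limits the precision throughout. Remaining steps ran in Python 3.11.15 (numpy 2.4.6, pandas 2.3.3), with figures from matplotlib 3.10.9.

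The 6 genes, the gene lists and the alternatives were chosen with earlier results of these data known. Named were all 6 genes with every probe, the 3 genes closest in profile to Col1a1 and to Col1a2, and from each list at most the 2 highest and 2 lowest genes at 2-fold or more (in both clones for the knockout); 1 gene that this names is not reported here. Named beyond that rule, after their values were seen, were Col11a1 and Col11a2 where the rule did not reach them, and Tmsb4x, as the target, with the cell type markers. Alternatives were another background correction (on the median signal, since the mean signal column was not used here), quantile scaling, a percentile over detected probes, the deposited table, no filter on dim probes, the mean of a gene's probes, each clone left out, every named probe in limma, and limma without the trend. Immune, endothelial, epithelial and osteoblast or chondrocyte markers were also read: 2 of 4, 0 to 1 of 4, 0 of 4 and 1 to 3 of 6 were well above background on an array.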

Additional observations from a re-analysis of the deposited data

How the results depend on the processing

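Of 48 recomputed counts and Col1a1-minus-Col1a2 differences, 39 kept their value within the limits set (a factor of 1.5 for counts, the SD between the clones for differences). The background correction with normexp gave 3.22 for Col1a1 minus Col1a2 with TGF-β1 against vehicle (5.40 in the main setting), 2 genes at 2-fold with CCG1423 (main 4) and 0 genes at 2-fold in both clones (main 1). The percentile over detected probes also gave 2 genes with CCG1423. The deposited value table gave 2 genes at 2-fold in both clones and 1 gene past adjusted p 0.05, Col5a3 (main 0), and no filter on dim probes gave 1 such gene, also Col5a3. With that table the median of all measured genes shifted by -0.36 in clone 1, by -0.13 with CCG1423 and by 0.10 with TGF-β1 against vehicle, and by -0.04 in clone 2; no other scaling shifted it by 0.1. Leaving out a clone gave 2 to 3 genes at 2-fold in the clone left, and -1.71 to -0.54 for Col1a1 minus Col1a2. Without clone 1 the Col1a1 difference turned to -0.23, and without clone 2 it was 1.18 (0.48 with both). Of 452 recomputed values for single genes, the sign also turned for Bnip3 with TGF-β1 against vehicle, near 0 throughout (-0.03 in the main setting, up to 0.07 with the deposited table), and for no other; 385 kept their direction and side of the threshold or moved less than the clones differ. Over all genes limma made 32 calls in the main fit, 0 with quantile scaling or the mean of probes, 85 with normexp, 74 with the percentile over detected probes, 16 over every named probe, 184 without the trend, 220 with the deposited table and 279 with no filter. The 4 scaling and background alternatives kept the sign of the differences of Col1a1, Col1a2, Col5a1, Col5a2 and Col5a3 in the 3 comparisons. The cause of these shifts was not tested. Dim signals limit Col1a1 with vehicle, Col1a2 with CCG1423 and Col5a3 in clone 2. No paired analysis was possible because the groups share at most 1 replicate number.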
